A study of Homo sapiens with 64 samples.

Results

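The steady-state mRNA of 2 human cell lines that the study used side by side was compared: C4-2 cells against HEK293T cells, each transfected with the control small interfering RNA, siCTRL, and collected at 0 h of an mRNA half-life course. The comparison uses 4 of the 64 libraries of the series, chosen by their labels alone, with 2 libraries per line. C4-2 is a prostate cancer line, derived from LNCaP, that grows without added androgen. HEK293T was grown out of human embryonic kidney and has a large T antigen gene from a simian virus. No allele, drug or other agent besides siCTRL is given for any of the 4 libraries, and per the labels' protocols each was made from polyadenylated RNA. Each line is a single culture lineage, so it stands for itself and not for a tissue, and the labels do not say whether the 2 libraries of a line came from separate cultures. The p-values therefore measure only the spread between the 2 libraries of a line, which may be technical. The lines were also run as separate time courses, each with its own count table, so that line and experiment cannot be told apart in any difference below.

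The C4-2 libraries, called A and B because their columns could be assigned to the group but not to a sample, held 105811623 and 100737455 counts in total. The HEK293T libraries 1 and 2 held 16954600 and 17444429. The tables shared 24053 gene symbols, which took 99.4% to 99.5% of the counts. Of these, 21185 and 21745 had a count in C4-2 A and B, against 16918 and 16900 in HEK293T 1 and 2, so low genes were seen far more often in C4-2 at this depth. Levels are given as counts-per-million (CPM) after scaling by edgeR's trimmed mean of M values (TMM). They are not divided by transcript length, so they compare a gene between lines and not genes with each other. C4-2 A and B differed in some genes: MALAT1, a nuclear noncoding RNA, had 492 CPM in A and 237 in B. Library B also held more of the transcripts that were rare in C4-2 and much higher in HEK293T. Of 762 genes that were below 1 CPM in C4-2 and lower there than in HEK293T by a log2 of 4 or more, 580 had more CPM in B than in A. This set was chosen by its level in HEK293T, so it does not stand for all rare transcripts.

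Prostate luminal cells are the secretory epithelium of the gland, held in their state by androgen signalling together with factors such as FOXA1 and HOXB13. They secrete kallikrein proteases, of which KLK3 is prostate-specific antigen. HEK293T cells are adherent but carry a mixed identity, with intermediate filaments and transcription factors of neural and renal precursors. HOX genes lie in 4 clusters, and the set that stays on in an adult cell records where along the body axis its tissue arose.

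Of 16701 genes tested, 13012 (77.9%) differed between the lines at an adjusted p under 0.05 (Benjamini-Hochberg over all genes, quasi-likelihood test of edgeR), the rule behind every call below. C4-2 was higher for 7114 (42.6%) and lower for 5898 (35.3%). These shares are the background for each count by list below. The median log2 fold change of C4-2 over HEK293T was 0.10 over all genes tested. The filter keeps a gene that is counted in either line, so a gene seen in 1 line had to differ, and the counts by list below are descriptions. With so many genes called, the call alone says little, and sizes are given throughout. A log2 of 1 or more was reached by 3971 genes higher in C4-2 (23.8%) and by 3424 lower (20.5%), 7395 in all (44.3%). A log2 of 4 or more was reached by 1257 higher (7.53%) and 868 lower (5.2%), 2125 in all (12.7%). In bulk RNA, a difference in the share of cells that use a gene and one in RNA per cell cannot be told apart.

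The same line in another experiment was set beside these counts. The series holds 2 input libraries of an RNA immunoprecipitation (RIP) from C4-2 cells with siCTRL, with their own table, of 23241339 and 22909634 counts. They also differ from the 0 h libraries in which RNA they hold, since RPPH1, a nuclear noncoding RNA, averaged 0.845 CPM in C4-2 at 0 h and had 3616 and 3587 in the inputs, so that experiment, library content and depth cannot be told apart between them. C4-2 at 0 h over these inputs, fitted in the same way, gave 11251 called genes of 16375 tested (68.7%), of which 5710 reached a log2 of 1 in either direction (34.9%) and 426 a log2 of 4 (2.6%). Between lines, the share past a log2 of 4 was 12.7%. A log2 of 1 was thus common between the C4-2 libraries of these experiments too. A set of 61 called genes named here was checked, each with more than 3 counts in C4-2 at 0 h, HEK293T and the input. With the input as the C4-2 side, 56 of them kept their sign and 5 did not. EIF2AK2, SAMHD1 and MAVS, named below, are not in this set. Many of the 61 were named for a large difference. Over all genes called in both fits, 9372 kept their sign and 2096 did not. Of the 56, the log2 of 27 lay nearer 0 by more than 1.5-fold and that of 13 farther from it. Input levels are given below for part of the genes.

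**Figure D1:**
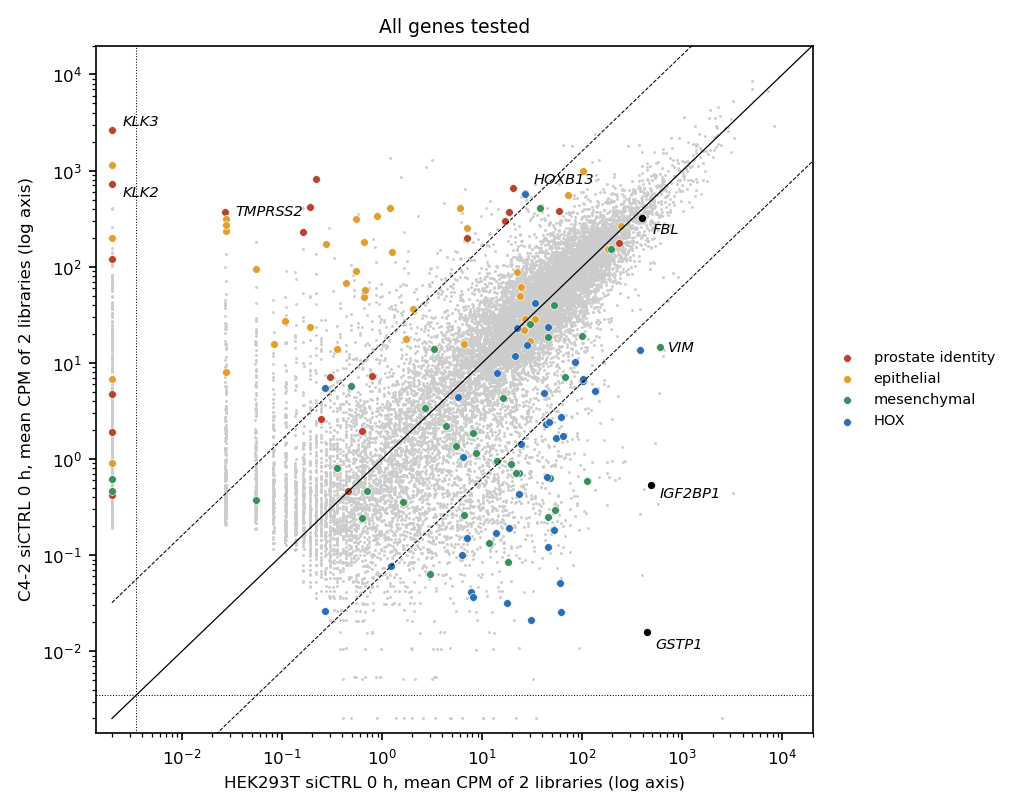
Mean CPM of all 16701 genes tested in C4-2 (vertical, log axis) against HEK293T (horizontal, log axis), 2 libraries each, with members of 4 gene lists in colour. The solid line marks equal levels, the dashed lines 16-fold differences, and genes at 0 lie outside the dotted lines. KLK3 (2577 and 2705 CPM in C4-2, 0 in HEK293T) and GSTP1 (0.0102 and 0.0214 CPM in C4-2, 441 and 447 in HEK293T) lie far from the solid line in opposite directions.

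The 3 genes used to check the label, KLK2, TMPRSS2 and HOXB13, were all far higher in C4-2. KLK2, a secreted kallikrein, had 719 and 721 CPM in C4-2 and no count in either HEK293T library, which makes it at least 8800-fold higher in C4-2 against a floor of 3 counts over both HEK293T libraries. TMPRSS2, a membrane serine protease driven by androgen, had 373 and 371 CPM in C4-2, against 0 and 0.0538 in HEK293T. That HEK293T value is 1 read, and the ratio of 13600 has a 95% counting interval of 2450 to 539000, which covers counting error only. HOXB13, the homeobox factor of the prostate, had 551 and 580 CPM in C4-2, against 26.1 and 27.3 in HEK293T, a log2 fold change of 4.41 ± 0.06 (SE, n = 2 each, edgeR adjusted p = 1.79e-10). HOXB13 was thus present in both lines, unlike the other pair. In the RIP input of C4-2 it had 131 and 129 CPM, and the log2 over HEK293T there was 2.10.

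The genes the study set out to deplete lay close together in the lines. FBL (fibrillarin), which methylates ribosomal RNA within box C/D small nucleolar ribonucleoproteins (snoRNPs), had 336 and 312 CPM in C4-2, against 401 and 392 in HEK293T, and was lower in C4-2 by a log2 of -0.29 ± 0.05 (adjusted p = 0.000733). NOP56, a scaffold of the same particle, had 249 and 232 CPM in C4-2, against 256 and 255 in HEK293T, and did not pass the test (log2 -0.09, adjusted p = 0.147). In the C4-2 input FBL had 85.9 and 83.7 CPM, so its level differed more between the C4-2 experiments than between the lines. Of 8 snoRNP core genes tested, 3 were higher and 3 lower in C4-2, against 42.6% and 35.3% of all genes, and none by a log2 of 1. Their median log2 was -0.04, or -0.13 without C4-2 A.

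KLK3 had the largest log2 in favour of C4-2 among called genes with 5 CPM or more in the higher line. It had 2577 and 2705 CPM in C4-2 and no count in HEK293T, at least 32300-fold higher in C4-2, and 339 and 353 CPM in the C4-2 input. KLK2 and KLK3 are neighbours on chromosome 19, and their start regions are shown because the pair was absent in HEK293T and abundant in C4-2. Each window, from RefSeq on GRCh38.p14, runs from 250 bases before to 50 after the gene's start on the plus strand: chr19:50854665-50854964 for KLK3 and chr19:50873189-50873488 for KLK2. Capitals mark AGAACA, a half-site of steroid hormone response elements, searched on both strands together with the forkhead letters TGTTTAC.
KLK3: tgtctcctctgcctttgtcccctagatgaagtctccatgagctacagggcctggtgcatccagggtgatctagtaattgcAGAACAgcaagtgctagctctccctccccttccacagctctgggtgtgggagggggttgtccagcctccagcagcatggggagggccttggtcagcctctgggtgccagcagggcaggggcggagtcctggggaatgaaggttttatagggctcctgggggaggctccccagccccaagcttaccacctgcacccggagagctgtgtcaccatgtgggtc
KLK2: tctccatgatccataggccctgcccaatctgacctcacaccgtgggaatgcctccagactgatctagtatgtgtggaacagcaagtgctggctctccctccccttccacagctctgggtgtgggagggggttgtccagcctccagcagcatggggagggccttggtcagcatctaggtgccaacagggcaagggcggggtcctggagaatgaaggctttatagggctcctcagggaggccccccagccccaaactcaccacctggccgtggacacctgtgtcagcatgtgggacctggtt
The KLK3 window held 1 AGAACA, which begins 170 bases before the start. KLK2 held no exact match: it reads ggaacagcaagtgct where KLK3 reads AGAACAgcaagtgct. Only exact letters were searched, so this does not show that KLK2 lacks a steroid response half-site. Neither window held TGTTTAC. Of the 35116 RefSeq windows of this length, 14.8% held AGAACA and 3.42% held TGTTTAC. The windows share an unbroken run of 80 bases, from 154 bases before the KLK3 start and 160 before the KLK2 start. No binding or methylation was measured in these libraries. TMPRSS2 and HOXB13 are named without a window.

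Of 24 prostate identity genes, 22 passed the filter on low counts, 20 were higher in C4-2 and 1 was lower, and 16 of the 20 were higher by a log2 of 4 or more. Their median log2 was 4.93, or 4.56 with genes at 0 in HEK293T set to their lower bound, against 0.10 for all genes. Among the factors, FOXA1, a pioneer factor that opens chromatin, had 657 and 663 CPM in C4-2, against 20.4 and 19.9 in HEK293T (log2 5.04 ± 0.06), and 176 and 169 in the input (log2 2.93). SPDEF, an ETS factor of secretory epithelia, had 398 and 448 CPM, against 0.331 and 0.0538 (log2 11.10 ± 0.19). GATA2 was less one-sided, with 370 and 396 CPM in C4-2, against 58.7 and 59.1 in HEK293T, and 132 and 121 in the input, where the log2 over HEK293T was 0.93 in place of 2.70.

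The surface proteins and enzymes followed. FOLH1, which encodes prostate-specific membrane antigen, had 864 and 775 CPM in C4-2, against 0.276 and 0.162 in HEK293T, and 95.0 and 102 in the input. TRPM8, a cold-sensing cation channel, had 119 and 121 CPM and no HEK293T count, at least 1470-fold higher in C4-2. KLK4 had 208 and 246 CPM, against 0.166 and 0.162. The markers STEAP2 and SLC45A3 were present in both lines, at 399 and 340 CPM and at 295 and 302 in C4-2, against 19.3 and 17.9 and against 17.2 and 16.6 in HEK293T. A few classic prostate transcripts were rare in C4-2 as well: MSMB, a secreted prostate protein, averaged 1.92 CPM, ACPP (prostatic acid phosphatase) 2.61, and the noncoding PCA3 0.42. NCAPD3, a condensin subunit, was the member lower in C4-2 (175 and 174 CPM, against 237 and 230). With the input as the C4-2 side its log2 changed sign, to 0.09.

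**Figure D2:**
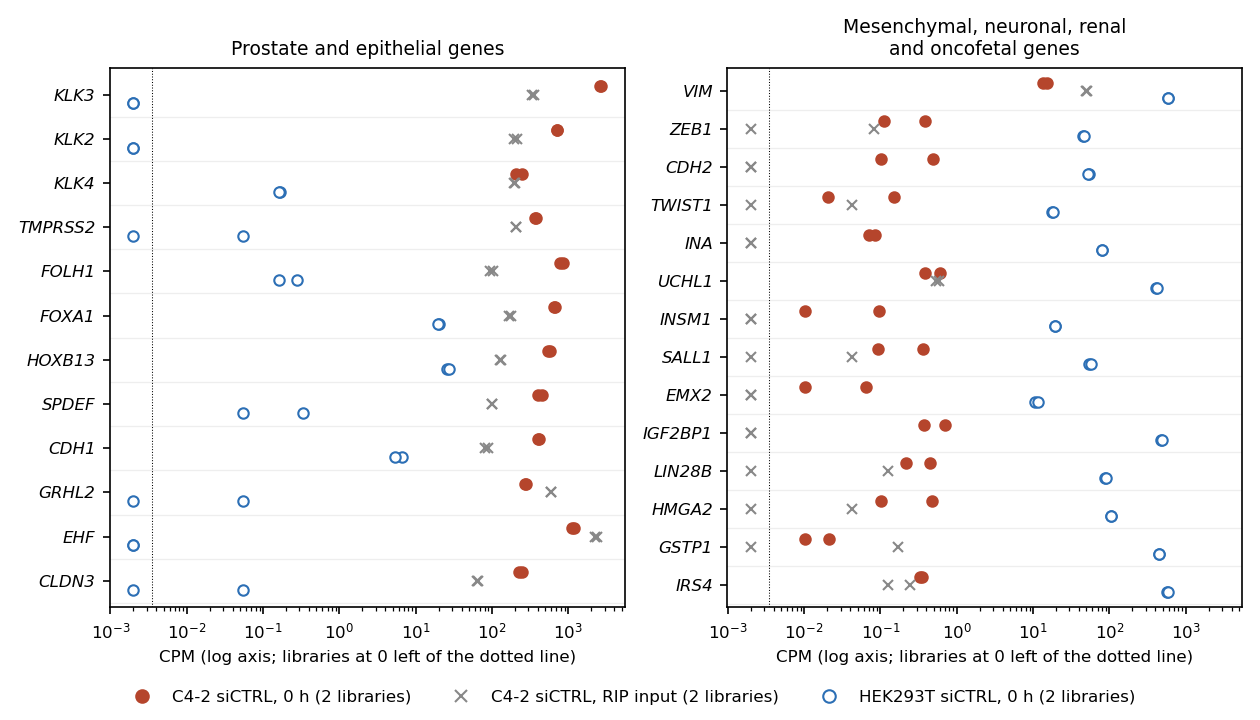
CPM (log axis) of 12 prostate and epithelial genes (left) and 14 genes of other programs (right) in each library of C4-2 at 0 h (filled circles), of the C4-2 RIP input (crosses) and of HEK293T at 0 h (open circles), with libraries at 0 left of the dotted line. In every gene drawn, both C4-2 0 h libraries and both inputs lie on the same side of both HEK293T libraries, for example HOXB13 at 551 and 580 CPM in C4-2, 131 and 129 in the input and 26.1 and 27.3 in HEK293T. The genes drawn were chosen with earlier results of these data known, so they do not stand for their lists. Members that ran against their list, such as NCAPD3, FN1 and SOX11, are not drawn.

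Genes that androgen is known to induce in prostate cells were nearly all higher in C4-2: 34 of 37 tested rose and 3 fell, with a median log2 of 2.91. The list shares 6 genes with prostate identity. Of the others, FKBP5, a chaperone of steroid receptors, had 533 and 503 CPM in C4-2, against 82.1 and 81.8 in HEK293T. PMEPA1, a feedback inhibitor of TGF-β signalling, had 348 and 360 CPM, against 12.8 and 11.8. KLK15, next to KLK2 and KLK3 in the kallikrein cluster, had 41.4 and 38.5 CPM, at least 489-fold higher than in HEK293T. AKAP12, a scaffold for protein kinase A, was the member that fell most (6.90 and 6.36 CPM, against 159 and 169, log2 -4.63 ± 0.08), with 38.1 and 34.1 CPM in the input (log2 -2.36). NR3C1, the glucocorticoid receptor, had 0.317 and 0.706 CPM in C4-2, against 26.2 and 24.8 in HEK293T (log2 -5.64 ± 0.25). Among 40 nuclear receptors, 17 were higher and 19 lower in C4-2, against 42.6% and 35.3% of all genes, so the share higher was close to the background. Their median log2 of -0.24 was 0.34 without HEK293T 1 and -0.07 without HEK293T 2. Fits without 1 library filtered genes anew, so the genes tested changed too. With all 4 libraries and no filter the median was 0.33. VDR, the vitamin D receptor, had 83.2 and 86.2 CPM in C4-2, against 14.5 and 15.7 in HEK293T (log2 2.49 ± 0.08).

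Genes of steroid metabolism were counted as well. Of 24, 17 were tested, 14 were higher and 1 lower. The median log2 of 4.94 falls to 2.39 with the 7 genes at 0 in HEK293T at their bound. Without 1 library it was 3.23 (C4-2 A), 1.66 (C4-2 B), 3.39 (HEK293T 1) or 3.28 (HEK293T 2). Each of these fits filtered genes anew, so the genes tested changed too. With all 4 libraries and no filter the median was 2.41. Most of those 7 were rare. UGT2B15, which glucuronidates androgens, had 1.85 and 2.13 CPM in C4-2, and CYP11A1, the cholesterol side-chain enzyme, had 3.20 and 3.60. SRD5A1, a steroid reductase, was well measured on both sides, at 34.9 and 32.8 CPM in C4-2, against 10.4 and 11.7 in HEK293T.

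Epithelial genes separated the lines as sharply as the prostate genes. Of 40 tested, 34 were higher in C4-2, 4 were lower and 2 did not pass, with 27 higher by a log2 of 4 or more. Their median log2 was 6.61, or 6.29 with bounds. EHF, an ETS factor of epithelia, had 1178 and 1110 CPM in C4-2 and none in HEK293T, at least 14000-fold higher, and 2401 and 2236 CPM in the input. GRHL2, which keeps epithelial junction genes on, had 270 and 276 CPM, against 0.0552 and 0. CDH1, the adhesion protein E-cadherin, had 411 and 406 CPM in C4-2, against 6.57 and 5.33 in HEK293T (log2 6.10 ± 0.08), and 82.3 and 88.7 in the input (log2 3.67).

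Several components of the epithelial sheet were at or near 0 in HEK293T. The tight junction gene CLDN3 had 226 and 248 CPM in C4-2, against 0.0552 and 0 in HEK293T. SPINT1, an inhibitor of membrane serine proteases, had 311 and 320 CPM, against 0.0552 and 0. PKP3, a desmosomal plakophilin, had 195 and 204 CPM, at least 2430-fold higher than in HEK293T. KRT8 and KRT18, keratins of simple epithelia, differed less, and HEK293T also expressed them. KRT8 had 574 and 601 CPM in C4-2, against 26.9 and 26.8 in HEK293T, and KRT18 had 570 and 549, against 74.6 and 69.9. This did not hold for KRT19, another such keratin. It averaged 6.78 CPM in C4-2 and had no count in HEK293T, at least 82.9-fold higher in C4-2. In the input KRT18 had 123 and 126 CPM, a log2 of 0.61 in place of 2.95, and that of KRT8 was 2.43 in place of 4.45. Not every junction gene took part. Desmoplakin (DSP) had 261 and 263 CPM in C4-2, against 243 and 244 in HEK293T, and did not pass the test. The 4 that fell, OCLN, PKP2, DSC2 and DSG2, did so by less than a log2 of 1. Without HEK293T 2, 2 members were called lower, and OCLN, PKP2 and DSC2 changed sign with the input as the C4-2 side. Basal prostate genes were mixed, with 7 of 11 higher and 4 lower, against 42.6% and 35.3% of all genes. The basal markers TP63, KRT5 and KRT15 averaged under 1 CPM in both lines, but other members did not. Of the 14 on the list, 3 reached a mean of 1 CPM in C4-2 only, 3 in HEK293T only, 4 in both and 4 in neither. LAMA3 had 103 and 87.4 CPM in C4-2, against 10.9 and 10.8 in HEK293T, and DST 16.1 and 16.4, against 95.8 and 101.

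Mesenchymal genes ran the other way: 24 of 35 tested were lower in C4-2, 5 were higher and 6 did not pass, with a median log2 of -2.14, or -3.39 with the input as the C4-2 side. VIM, the filament protein vimentin, had 15.4 and 13.6 CPM in C4-2, against 591 and 595 in HEK293T (log2 -5.35 ± 0.07, adjusted p = 1.62e-10), and 51.3 and 49.4 in the input. ZEB1, a repressor of CDH1, had 0.112 and 0.385 CPM, against 44.7 and 46.5. CDH2 (N-cadherin) had 0.102 and 0.482 CPM, against 53.4 and 53.2. TWIST1 had 0.0204 and 0.150 CPM, against 17.7 and 18.2. The inputs of C4-2 held no CDH2 count.

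The list was not uniform. FN1 (fibronectin) was higher in C4-2, at 403 and 422 CPM, against 39.0 and 36.2 in HEK293T (log2 3.46 ± 0.06), and SNAI1, another repressor of CDH1, had 13.8 and 14.1 CPM, against 3.04 and 3.61. In the input FN1 had 96.7 and 98.2 CPM (log2 1.20) and SNAI1 7.08 and 6.62 (log2 0.87 in place of 2.07). Collagen genes differed among themselves: COL4A1 had 0.388 and 0.867 CPM in C4-2, against 47.9 and 48.2 in HEK293T, whereas COL1A1 averaged 25.2 CPM in C4-2 and 30.2 in HEK293T and did not pass the test. Of 15 leukocyte, endothelial and fibroblast markers, 11 were tested, 5 were higher and 2 lower, against 42.6% and 35.3% of all genes. Their median log2 was 1.57, or -0.12 without C4-2 B, where genes were filtered anew. The summed level of the whole list was 57.8 and 57.1 CPM in C4-2, against 42.9 and 39.9 in HEK293T. PTPRC, which defines leukocytes, had 0.225 and 0.814 CPM in C4-2 and was at 0 in HEK293T and in the C4-2 input. The part of other cells in these differences was not tested.

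**Figure D3:**
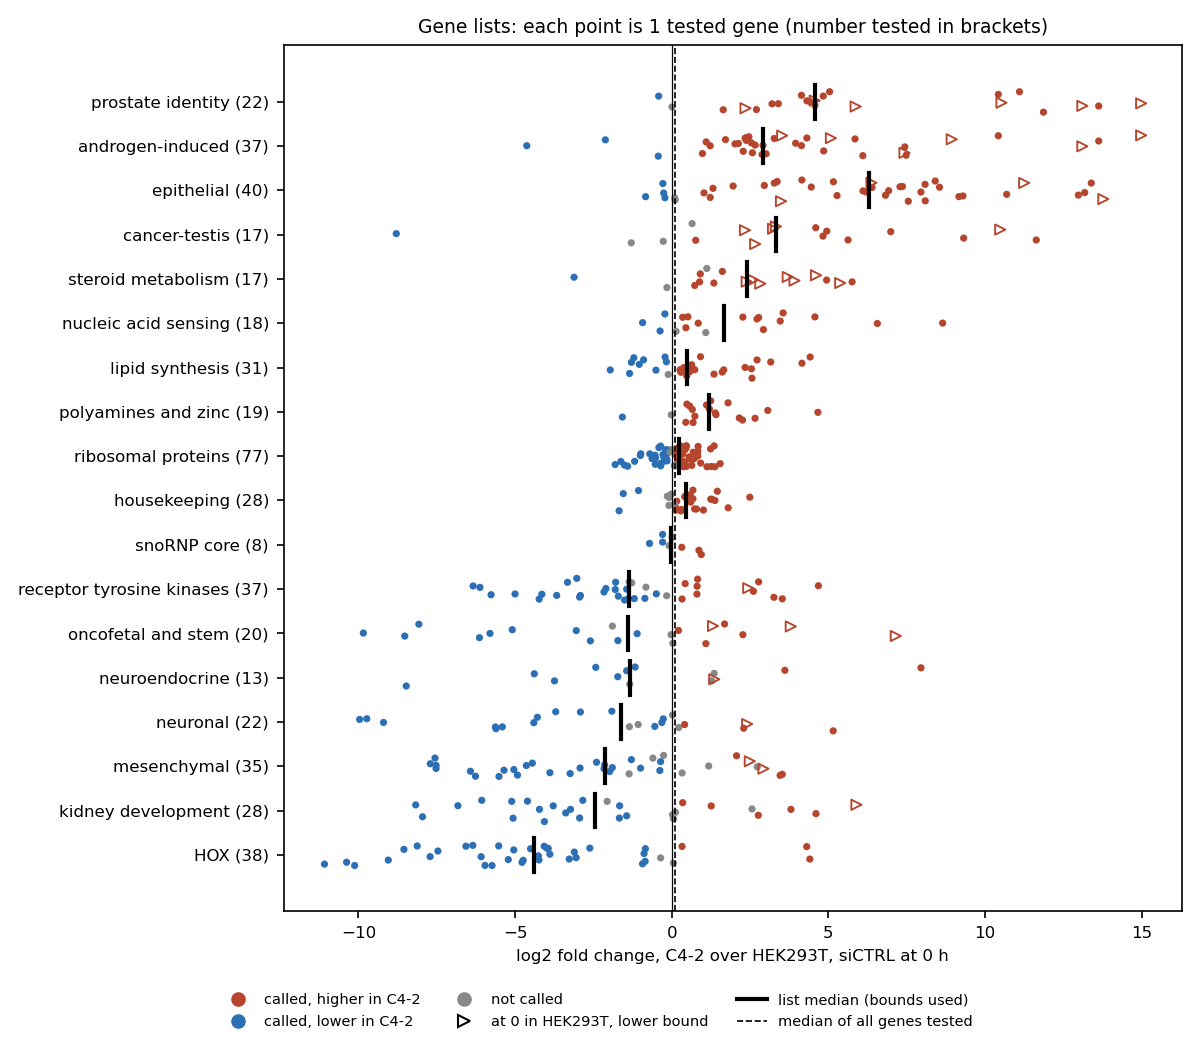
Log2 fold change of C4-2 over HEK293T for each tested gene of 18 lists, 1 point per gene, with called genes in colour, genes at 0 in HEK293T as open triangles at their lower bound, list medians as black bars and the median of all genes as a dashed line at 0.10. Prostate identity, androgen-induced and epithelial genes lie mostly on the right, HOX, kidney development and mesenchymal genes mostly on the left.

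HOX genes gave the most uniform list among those lower in C4-2. Of 38 tested, 33 were lower in C4-2, 3 higher and 2 not called, with a median log2 of -4.38. Summed over all HOX genes but HOXB13, the level was 199 and 194 CPM in C4-2, against 1687 and 1732 in HEK293T. HOXB13 is left out of that sum because it ran the other way, as given above. With HOXB13 the sum was 750 and 774 CPM in C4-2, against 1713 and 1759 in HEK293T, a much smaller difference.

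The 4 clusters differed in extent. All 11 HOXA genes and all 9 HOXD genes tested were lower in C4-2. The HOXD cluster was nearly silent there, with a summed level of 5.58 and 5.41 CPM in C4-2, against 294 and 299 in HEK293T. HOXD13 had 5.21 and 4.88 CPM of that in C4-2. HOXD11 had 0.0408 and 0.0107 CPM in C4-2, which is 4 counts and 1, against 57.5 and 65.3 CPM in HEK293T. HOXD10 shares exons with HOXD11 in the annotation, so reads of the pair cannot be fully told apart. In the HOXB cluster 8 of 9 were lower, among them HOXB8 (0.102 and 0 CPM, against 56.9 and 64.2) and HOXB9 (13.5 and 13.8 CPM, against 371 and 377). HOXB13, at the far end of the same cluster, ran against it. With HOXB13, the summed HOXB level was 580 and 609 CPM in C4-2, against 643 and 658 in HEK293T. In the HOXC cluster 5 of 9 were lower and 2 higher. HOXC12 had 5.32 and 5.56 CPM in C4-2, against 0.221 and 0.323 in HEK293T. HOXC6 was slightly higher (42.4 and 41.6 CPM, against 31.0 and 36.0), with a log2 of 0.33 that became -0.24 with the input as the C4-2 side. In the annotation HOXC6 shares exons with HOXC4, HOXC5 and HOXC9, so its reads cannot be fully told apart from theirs.

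**Figure D4:**
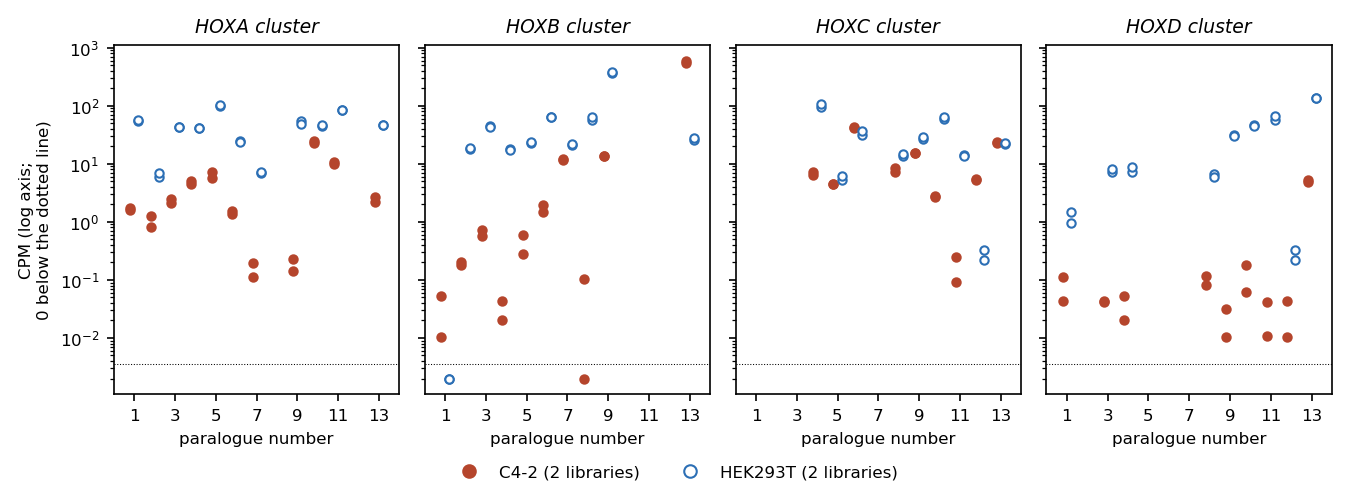
CPM (log axis) of each HOX gene by paralogue number in the 4 clusters, with C4-2 libraries filled and HEK293T libraries open and libraries at 0 below the dotted line. Across HOXA and HOXD, C4-2 lies below HEK293T at every position, and in HOXB only paralogue 13 (551 and 580 CPM in C4-2, 26.1 and 27.3 in HEK293T) and the untested paralogue 1 do not.

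Genes of kidney development, the tissue HEK293T was taken from, were lower in C4-2 for 17 of 28 tested and higher for 6 (median log2 -2.45). Over all genes tested, 35.3% were lower and 42.6% higher. SALL1, a zinc finger factor of nephron progenitors, had 0.0919 and 0.364 CPM in C4-2, against 54.6 and 58.1 in HEK293T. EMX2, a homeobox factor of the urogenital ridge and brain, had 0.0102 and 0.0642 CPM, against 10.7 and 11.7. MEIS2, a partner of HOX proteins, had 0.184 and 0.300 CPM, against 28.3 and 26.8. PAX2 averaged 0.706 CPM in C4-2 and 13.2 in HEK293T, while SIX2, of nephron progenitors, averaged 8.31 and 78.1. TBX3, a T-box repressor, was higher in C4-2 (572 and 555 CPM, against 82.6 and 83.6).

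Neuronal genes were lower in C4-2 for 14 of 22 tested and higher for 4 (median log2 -1.63). The shares over all genes, for this list and the neuroendocrine one, are 35.3% lower and 42.6% higher. The neuronal median was -2.42 without C4-2 A, -2.90 without C4-2 B, -1.0 without HEK293T 1 and -0.60 without HEK293T 2. Each of these fits filtered genes anew, so the genes tested changed too. With all 4 libraries and no filter the median was -0.80. The intermediate filament genes stood out: INA (internexin) had 0.0715 and 0.0856 CPM in C4-2, against 79.9 and 80.8 in HEK293T, and NEFM (neurofilament medium) 0.184 and 0.203, against 111 and 119. UCHL1, a neuronal ubiquitin hydrolase, had 0.378 and 0.599 CPM, against 411 and 420 (log2 -9.73 ± 0.11). MAP2, a dendritic microtubule protein, was higher in C4-2 instead (12.1 and 11.3 CPM, against 0.221 and 0.431), and so was NES (39.8 and 39.7, against 7.90 and 8.29). Neuroendocrine genes, which mark a form of prostate cancer that has lost the luminal state, were lower for 7 of 13 and higher for 3, or for 1 without C4-2 B or without HEK293T 2. INSM1, a neuroendocrine zinc finger factor, had 0.0102 and 0.0963 CPM in C4-2, against 19.4 and 19.3 in HEK293T, and SYP (synaptophysin) 1.61 and 2.28, against 24.7 and 27.4. DDC, the enzyme of dopamine and serotonin synthesis, was the exception with a high level in C4-2 (21.5 and 20.1 CPM, against 0.166 and 0).

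Oncofetal genes were split. Of 20 tested, 10 were lower in C4-2 and 7 higher, against 35.3% and 42.6% of all genes. The median log2 of -1.41 was -0.16 without HEK293T 1 and -0.03 without HEK293T 2. Those fits filtered genes anew, and with all 4 libraries and no filter the median was 0.03. The RNA-binding proteins that fetal cells use were among the lower: IGF2BP1 had 0.368 and 0.696 CPM in C4-2, against 479 and 495 in HEK293T, and LIN28B, which blocks let-7 maturation, had 0.214 and 0.450, against 88.6 and 89.8. HMGA2, a chromatin protein and let-7 target, had 0.102 and 0.471 CPM, against 105 and 104. Neither IGF2BP1 nor SOX2 had a count in the C4-2 input. SOX11, a neural progenitor factor, was higher in C4-2, with 11.7 and 11.5 CPM and at least 142-fold above HEK293T.

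Cancer-testis genes, silent in most adult tissues outside the germ line, also had a high median in C4-2. Of 24, 17 were tested, 13 were higher and 1 lower (median log2 5.63, or 3.32 with bounds). MAGEA1 had 117 and 116 CPM in C4-2, at least 1430-fold above HEK293T. PAGE1 had 191 and 168 CPM, against 0.110 and 0. MAGEB2 ran the other way (0.0408 and 0.0107 CPM, against 12.7 and 12.4). Members of the MAGEA family are near-identical copies, so reads may be split or shared among them.

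Receptor tyrosine kinases were lower in C4-2 for 22 of 37 and higher for 11 (median log2 -1.38, or -2.48 with the input). For this list and the next, the shares over all genes are 35.3% lower and 42.6% higher. KIT had 0.0306 and 0.471 CPM in C4-2, against 21.2 and 19.2 in HEK293T. MET, the receptor for hepatocyte growth factor, had 2.69 and 2.62, against 48.4 and 51.4. ERBB3, a receptor for neuregulins, had 186 and 177 CPM in C4-2, against 6.96 and 7.21 in HEK293T. Genes of the YAP and TEAD pathway were lower for 16 of 29 and higher for 6 (median log2 -0.99, which was -0.51 without C4-2 A and -0.44 with the input). AMOT (angiomotin), which holds YAP out of the nucleus, had 13.6 and 13.8 CPM in C4-2, against 654 and 660 in HEK293T. IGFBP3, a secreted binding protein of insulin-like growth factors, was higher in C4-2 (29.6 and 26.1 CPM, against 0.276 and 0.215, log2 6.81 ± 0.20), with 4.94 and 4.69 in the input.

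Genes of nucleic acid sensing, which include adaptors and transcription factors besides sensors, were more often higher in C4-2: 13 of 18 tested rose and 3 fell. The 3 were EIF2AK2, a sensor of double-stranded RNA, SAMHD1 and MAVS, at a log2 of -0.93, -0.37 and -0.22. The list median log2 was 1.68, or 1.06 with the input. It was 2.81 without HEK293T 1, where genes were filtered anew, and 2.73 with all 4 libraries and no filter. MYD88, the adaptor of toll-like receptors, had 71.0 and 68.4 CPM in C4-2, against 0.718 and 0.754 in HEK293T. IRF7, an inducer of interferon genes, had 29.6 and 32.6 CPM, against 1.60 and 1.02, and 8.53 and 7.46 in the input. The DNA sensors MB21D1 (cGAS) and IFI16 averaged under 1 CPM in both lines and were not tested. Antigen presentation genes were higher for 12 of 20 and lower for 5, or for 3 without HEK293T 2. Over all genes tested, 42.6% were higher and 35.3% lower. The antigen presentation median log2 of 0.80 became -0.40 with the input as the C4-2 side.

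Among p53 targets and regulators, 13 of 32 were higher and 17 lower in C4-2 (median log2 -0.34, which changed sign to 0.55 with the input). The share higher was close to the 42.6% over all genes, of which 35.3% were lower. Large T antigen, which HEK293T carries, is known to bind p53 and RB. CDKN2A, which encodes inhibitors of cell cycle kinases and of the p53 ligase, had 43.8 CPM in both C4-2 libraries, against 709 and 730 in HEK293T (log2 -4.04 ± 0.05). GDF15, a stress cytokine, had 1308 and 1420 CPM in C4-2, against 0.939 and 1.45 in HEK293T, and 115 and 113 in the input. Replication and mitosis genes were higher for 22 of 41 and lower for 17. Their median log2 of 0.20 was -0.64 with the input and -0.0044 under total counts, so no direction is drawn from it. The G1 cyclins differed: CCND1 had 445 and 402 CPM in C4-2, against 82.2 and 85.0 in HEK293T, and CCND2 had 0.204 and 0.621, against 83.0 and 82.9.

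Metabolic lists moved less. Polyamine and zinc genes, a prostate specialty, were higher in C4-2 for 17 of 19 tested and lower for 1, or for 2 without C4-2 B (median log2 1.20). ODC1, the rate-limiting enzyme of polyamine synthesis, had 1790 and 1855 CPM in C4-2, against 290 and 288 in HEK293T. In the C4-2 input ODC1 had 599 and 555 CPM, a log2 of 0.82 in place of 2.66. SLC30A4, a zinc exporter, had 140 and 144 CPM, against 5.25 and 5.98. Lipid synthesis genes were higher for 21 of 31 and lower for 9 (median log2 0.48). FADS2, a fatty acid desaturase, had 2338 and 2490 CPM in C4-2, against 138 and 133 in HEK293T. In the C4-2 input FADS2 had 205 and 223, a log2 of 0.48 in place of 4.15. The medians of both lists also changed sign with the input, to -0.44 and -0.31.

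Ribosomal protein genes were higher in C4-2 for 44 of 77 and lower for 26 (median log2 0.23), and housekeeping genes for 20 of 28 and lower for 3, or for 6 without C4-2 A and 5 without C4-2 B (median log2 0.46). With the input as the C4-2 side these medians were -1.52 and -0.98, so no direction is drawn from them. Other transcripts mark how a library was made (histone mRNAs without a poly(A) tail and nuclear noncoding RNAs). Of 15 tested, 8 were higher and 1 lower in C4-2, against 42.6% and 35.3% of all genes. All 8 were higher by a log2 of 1 or more, and the list median was 1.42, or 6.43 with the input. RPPH1 averaged 0.845 CPM in C4-2 and 0.601 in HEK293T and was not called. Whether the libraries of the lines differ in content was not tested.

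Large differences outside these lists were taken by size. LAD1 (ladinin, an epithelial anchoring protein), AZGP1 (a secreted zinc-binding glycoprotein of the prostate), LTBR (the lymphotoxin beta receptor), NETO1 and CDCP1 were at 0 in HEK293T and had 394 and 398, 259 and 258, 200 and 207, 164 and 148, and 141 and 146 CPM in C4-2. MME, the cell-surface peptidase neprilysin, had 1349 and 1257 CPM in C4-2, against 2.93 and 3.45 in HEK293T. SPON2, a secreted matrix protein, had 819 and 897 CPM, against 1.88 and 1.18, and 78.7 and 85.3 in the input (log2 5.57 in place of 9.13). NFIX and ABHD2 were abundant in both lines, at 1733 and 1980 and at 1760 and 1815 CPM in C4-2, against 62.8 and 65.1 and against 76.2 and 80.7 in HEK293T. In the input NFIX had 466 and 465 CPM and ABHD2 1720 and 1833.

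In the other direction, GSTP1, a glutathione transferase known to be silenced in most prostate cancers, had 1 and 2 counts in the C4-2 libraries, against 441 and 447 CPM in HEK293T. CA2 (carbonic anhydrase II) had 0.0613 and 0.0642 CPM in C4-2, against 396 and 392. CYBA, a subunit of NADPH oxidase, had 0 and 0.0214, against 92.9 and 93.7. IRS4, an adaptor of the insulin receptor, had 0.327 and 0.353 CPM in C4-2, against 565 and 583 in HEK293T (log2 -10.71 ± 0.08), and 0.247 and 0.126 in the input. NME4, a mitochondrial nucleoside diphosphate kinase, had 1.38 and 1.56 CPM in C4-2, against 539 and 537 in HEK293T. ZNF503, a zinc finger repressor, had 11.0 and 12.7 CPM, against 633 and 639. Sex-linked marker genes that the size rule took are not described.

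Some zeros moved with the table. All 18 genes that GENCODE v29 places on both X and Y and that are in both tables were at 0 in HEK293T and also in the C4-2 input, yet all 18 had counts in both C4-2 0 h libraries. Among them is SLC25A6, a mitochondrial nucleotide carrier, with 408 and 414 CPM in C4-2, so its absence from HEK293T is not read as a difference between lines. Of 126 genes with 5 CPM or more in C4-2 and none in HEK293T, 74 were at 0 in all 8 HEK293T siCTRL libraries of the course, and the 10 that were also at 0 in the input all belong to those 18. In the other direction 7 genes had 5 CPM or more in HEK293T and none in any of the 8 C4-2 siCTRL libraries. Among them were RNA45S5, the ribosomal RNA precursor (2520 and 2458 CPM in HEK293T), and SRGAP2C, a recent duplicate (11.2 and 9.26). Both were also at 0 in the C4-2 input. Line and table cannot be told apart in these zeros, so they are not read as a difference between lines. CSNK1E, a casein kinase, had 5.27 and 4.55 CPM in C4-2, against 579 and 588 in HEK293T, but shares exons with a readthrough gene in the annotation. NME4, LAD1, FADS2 and MAGEA family members likewise share exons or sequence with other genes, and no source used here states whether counting used strand.

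Low levels make up part of the large differences. Of the 1257 genes higher in C4-2 by a log2 of 4 or more, 693 were at 0 in both HEK293T libraries and 458 were below 1 CPM in C4-2. Of the 868 lower by as much, 43 were below 1 CPM in HEK293T and 17 were at 0 in both C4-2 libraries.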

How the data were processed

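The authors deposited counts of reads as whole numbers, with a column per library and a row per gene symbol, in 1 table per experiment. Nothing in the values shows a normalisation. No source used here names the aligner or counting tool of the time courses, and hg38, GRCh38.p13 and hg19 are named per the submitters' processing notes without a role, so no coordinates are given for the counts. The C4-2 columns were assigned to the group only. Tables were joined by symbol, and genes in 1 table only, partly renamed symbols, were left out (2311 of C4-2 and 1154 of HEK293T).

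The 4 libraries were fitted together in edgeR 4.0.16 (R 4.3.3) with TMM scaling, filterByExpr, a quasi-likelihood test of line and Benjamini-Hochberg adjustment. The script was tested on simulated counts. The SE is the log2 divided by the square root of F. A gene at 0 in 1 line is given a lower bound against a floor of 3 counts over that line's libraries, and a ratio resting on 1 to 3 counts a 95% exact counting interval. The members and 26 gene lists were chosen with earlier results of these data known. Some genes are not reported here and were left out of the lists. Genes to name were drawn by a rule, which always took KLK2, TMPRSS2, HOXB13, FBL and NOP56. It took the 10 largest and 10 lowest log2 among called genes with 5 CPM or more in the higher line. It added the 10 most abundant per line at a log2 of 4 or more. Per list it added the members with the largest log2, those against the median and the most abundant not called. Not all genes drawn are described, and some members that ran against their list are among those left out. Other members named were chosen for their role after their values were seen. DESeq2 1.42.0, other scalings and filters, all siCTRL libraries, the RIP input, thinned counts, a block and left-out libraries were tried as alternatives. Each fit on other libraries filtered genes anew. Without HEK293T 1 or 2, 19111 and 19102 genes were tested, and without C4-2 A or B 15378 and 15102. A list median without 1 library can therefore rest on other members. The numbers of the columns pair no cultures, since they belong to different lines.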

Additional observations from a re-analysis of the deposited data

How the results depend on the processing

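Scaling by total counts only, in place of TMM, gave a median log2 of all genes of -0.096, against 0.10, and 46.8% of calls higher in C4-2, against 54.7%, so differences under about that size depend on the scaling. The count of genes higher in C4-2 by a log2 of 4 or more, 1257, was 750 among genes with 1 CPM in 2 libraries and 360 among genes with a count in all 4 libraries, an alternative added after the data were seen. Both test fewer genes. The other counts of calls over all genes stayed within 1.5 times under every alternative run, while 63 counts of calls within a list moved further, more with the RIP input than with any other alternative. With the column number as a block, 12861 genes were called, against 13012 without the block, and the numbers pair no cultures, as the lines differ. No gene called under both TMM and another scaling, filter, test, thinned depth or left-out library had opposite signs. With the RIP input as the C4-2 side, 2096 genes called in both fits did and 9372 did not.

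In the fit with the input, the log2 of HOXC6 was -0.24, of NCAPD3 0.089, of OCLN 0.25, of PKP2 0.12 and of DSC2 0.37, each opposite in sign to the values at 0 h. DSP had a log2 of -0.093 under total counts and NOP56 of 0.11 with all 16 siCTRL libraries, and neither was called in the 0 h fit. FBL was not called with all 16 siCTRL libraries (log2 -0.09, adjusted p = 0.227). The cause was not tested. Depth limits what counts as absent: 1 count is 0.0102 and 0.0107 CPM in C4-2 A and B, and 0.0552 and 0.0538 CPM in HEK293T 1 and 2.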
